A study of Mus musculus with 6 samples.

Results

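The genes described here are 46 genes of DNA replication: those that license origins, fire them, build and run the replication fork, supply deoxynucleotides and restore chromatin behind the fork. They were picked by gene symbol for their role and not by a threshold on measured values, though with earlier results of these data known, and all 46 were found among the 21853 genes of the deposited table. The libraries were 6, all from embryonic fibroblasts of C57BL/6J mice, connective tissue cells grown in culture, with xCT knocked out in both groups and a labelled age of 12 days. Treatment set the groups apart: 3 libraries came from cells given water (control) and 3 from cells treated with an extract of red clover, here called RCE. Nothing in the sources used here gives its dose, the time of exposure, the knockout allele or the number of embryos behind the cultures. xCT is the light chain of the transporter that exchanges glutamate for cystine, and cells without it are short of glutathione. The study asked how the extract acts on cell death by ferroptosis, and no label names cell division as a subject.

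In each G1 phase the origin recognition complex (ORC), with Cdc6 and Cdt1, loads the MCM helicase ring onto DNA, a step called licensing. In S phase the Cdc7 kinase with its activator Dbf4 fires licensed origins, Cdc45 and the GINS complex join the MCM ring to form the active helicase, and polymerases copy the strands behind it. Most of these genes are targets of E2F transcription factors, so their messenger RNA is made mainly in cells that pass from G1 into S phase.

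Values are FPKM, fragment counts scaled to transcript length and to library size, so levels of different genes can be compared. Library depths, read from the steps between low values, ran from 45650000 to 58950000 fragments. Slc7a11, the gene of xCT, ranged from 0.007 to 0.037 FPKM over the 6 libraries. All 7 fibroblast markers were at 1 FPKM or more on average, with a summed level of 4114 to 4245 FPKM in control and 3799 to 3894 FPKM with RCE, and 1 of them, Pdgfrb, fell. Of the markers of other cell types, 1 of 5 for macrophages, 1 of 4 for endothelium, 2 of 5 for epithelium, 1 of 4 for muscle, 1 of 4 for nerve cells and 0 of 3 for red cells reached a mean of 1 FPKM. The summed epithelial markers were at 6.75 to 7.33 FPKM in control and 4.50 to 5.77 FPKM with RCE, and the muscle markers, nearly all of it Des, at 37.7 to 44.3 and 49.5 to 57.8 FPKM, while Myod1 and Myf5 were listed at 0 in all 6 libraries. The summed macrophage markers were at 5.15 to 5.72 and 4.06 to 4.84 FPKM, those of nerve cells, nearly all of it Tubb3, at 9.91 to 10.8 and 11.8 to 12.7 FPKM, and those of endothelium at 1.15 to 1.47 and 1.14 to 1.34 FPKM. Red cell markers summed to 0 to 0.281 FPKM in control and 0.024 to 0.187 FPKM with RCE. The part that a change in cell makeup has in the results below was not tested. The labels do not say that replicates were separate cultures, so the p-values speak only of how these 6 libraries varied, and that variation may be technical.

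Transcripts of the replication machinery were higher with the extract in nearly every role, by modest amounts. Mean levels were higher with RCE for 45 of the 46 genes, and the exception was Cdt1. The ratio of the group means on the FPKM scale ran from 0.859 for Cdt1 to 2.18 for Dtl, with a median of 1.42, against a median of 1.06 for all genes tested. In the limma test on log2(FPKM + 1), 30 of the 43 genes that passed the filter (mean over the 6 libraries no lower than 1 FPKM) rose at an adjusted p below 0.05 and 0 fell, where 17.6% of all 10870 genes tested rose and 6.77% fell. At an unadjusted p below 0.05, 39 of the 43 were higher and 1, Cdt1, was lower, against 28.5% and 9.48% of all genes tested. The median log2 change of the 43 was 0.36, and that of all genes tested was 0.08. In bulk RNA a larger share of cells in S phase and more transcript in each cell cannot be told apart.

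Orc1, Cdc6 and Gins1 were under the filter. Dtl, Gmnn, Mcm10 and Cdc7 passed it only through their level with RCE, so their passing depends on the difference itself. With a filter on the control mean alone, an alternative chosen after the data were seen, 27 of 39 rose, against 16.9% of all genes. With no filter 31 of 46 rose, against 11.3% of all genes. With median-of-ratios scaling, which sets the median change of all genes to 0.00, the count was 27 of 43 and the background 8.50%. A correction for GC content gave 25 of 43 higher (background 10.3%) and 1 lower (background 9.55%), and that 1 was Cdt1. With the replicate number as a block 41 of 43 rose (background 46.6%) and 1, Cdt1 again, fell (background 15.9%).

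**Figure D1:**
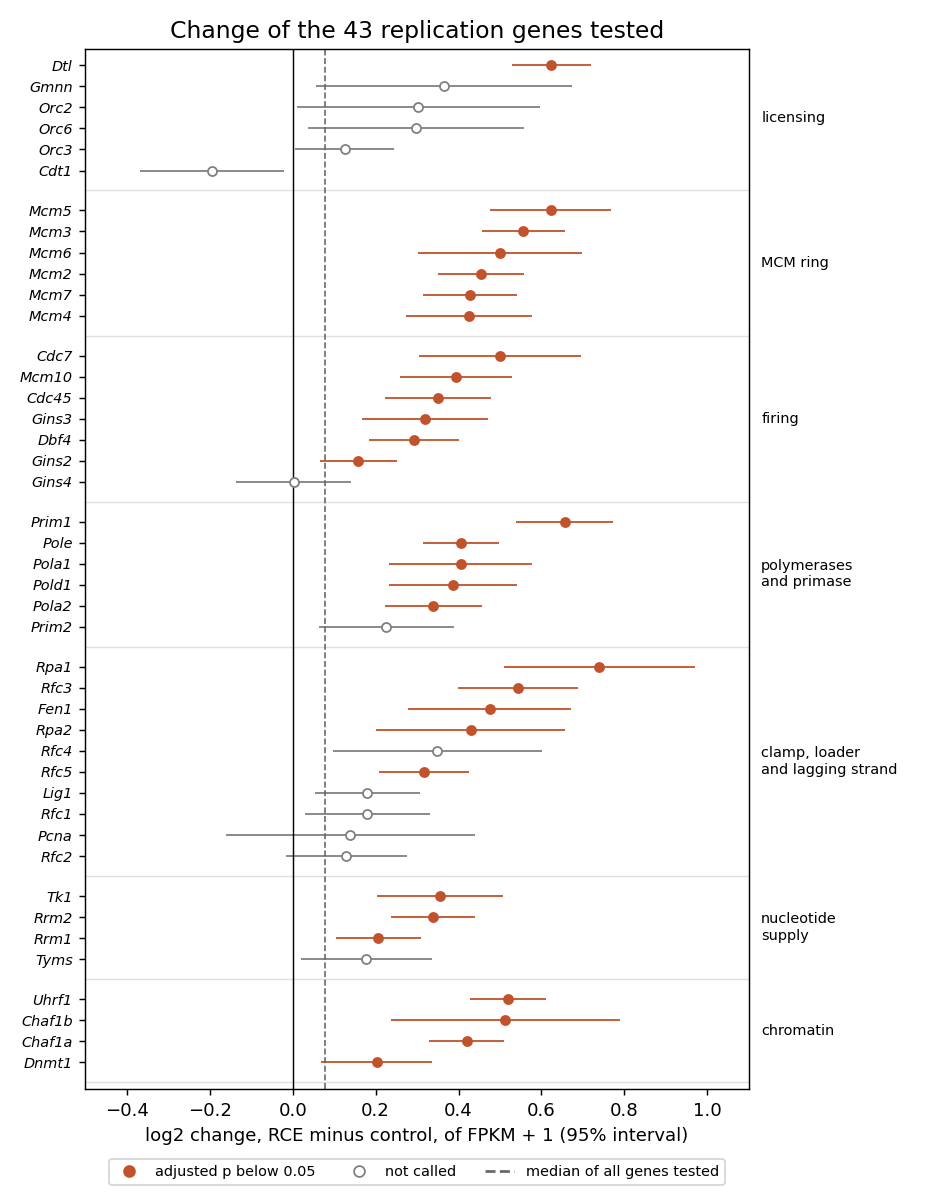
The horizontal axis gives the log2 change of FPKM + 1, RCE minus control, with its 95% interval from limma, for the 43 genes tested, grouped by role and ordered by size. Filled points are the 30 genes at an adjusted p below 0.05, open points the 13 others, and the dashed line is the median of all genes tested, 0.08. All 6 MCM genes are filled, while in the licensing group only Dtl is.

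Per library the separation was broad. The 3 RCE values lay above the 3 control values for 41 of the 46 genes and below them for Cdt1, while Gmnn, Gins4, Pcna and Rfc2 overlapped. Among all genes tested, 31.2% had all RCE values above and 10.9% all below. Within pairs of same-numbered libraries, 44 of 46 were higher with RCE in all 3 pairs. Cdt1 was lower in all 3, and Gins4 was higher in 1 of 3. The share of all genes higher in all 3 pairs was not counted, so the 44 have no background beside them. With the replicate number as a block, 46.6% of all genes tested were called higher.

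**Figure D2:**
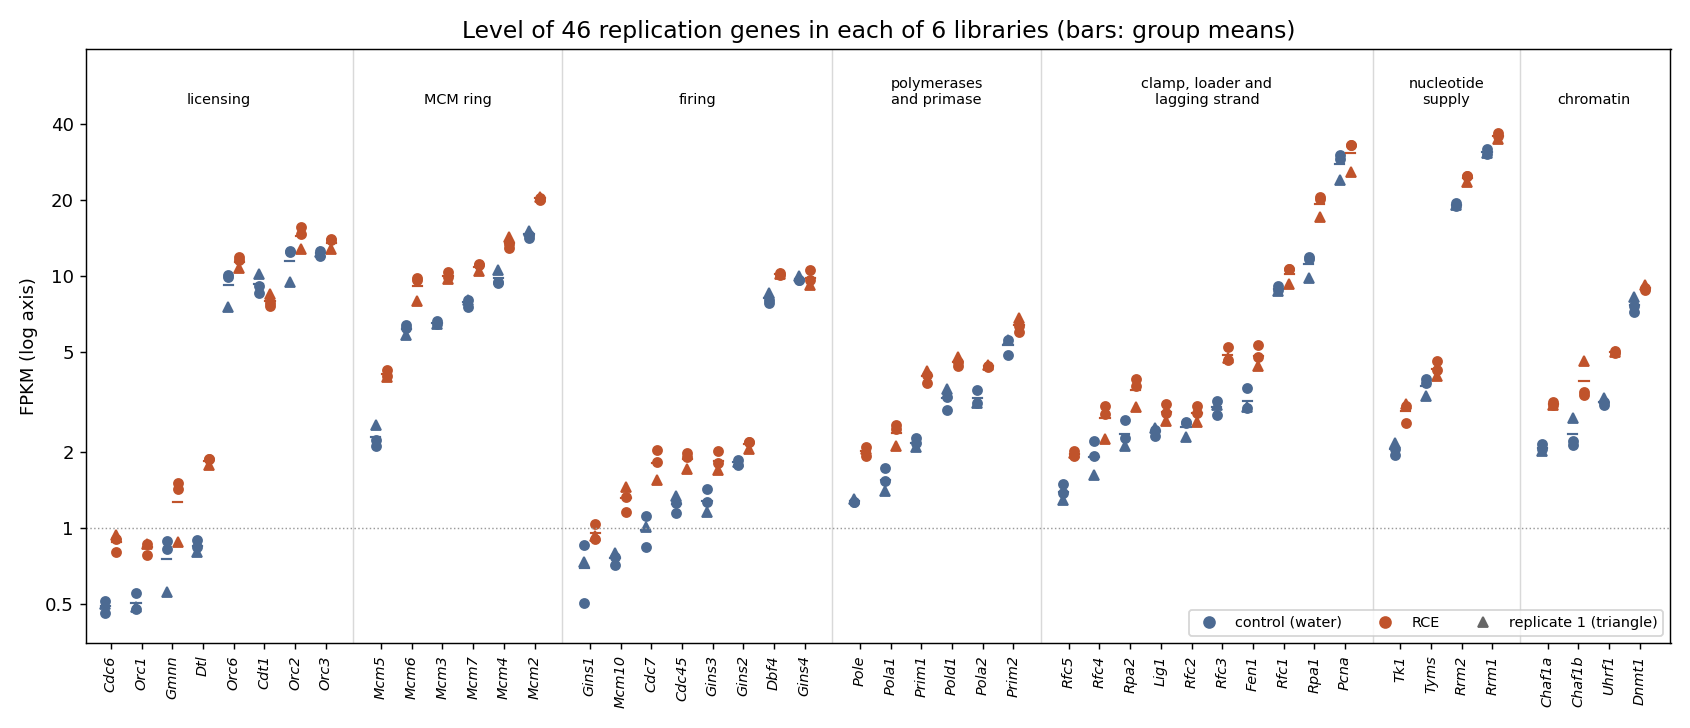
The vertical axis is FPKM on a log axis and each gene has 3 control points on the left and 3 RCE points on the right, with replicate 1 as a triangle and a bar at each group mean. The genes are grouped by role and ordered by control mean. Most pairs of bars are shifted upward with RCE, Cdt1 is shifted downward and Gins4 stays level, and subunits of the same complex sit at levels that differ by more than 10-fold for ORC and GINS.

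The promoters of the 3 genes with the smallest p that have an entry in the RefSeq table of build GRCm38.p6 (mm10) are shown to let the reader see what stands before genes that moved together. Each line holds the 250 bases before the annotated start, in the direction of the gene, and capitals mark CCAAT and the E2F letters searched (TTTCCCGC, TTTCGCGC, TTTGCCGC or TTTGGCGC, on either strand).
Dtl promoter (chr1:191575545-191575794, minus strand): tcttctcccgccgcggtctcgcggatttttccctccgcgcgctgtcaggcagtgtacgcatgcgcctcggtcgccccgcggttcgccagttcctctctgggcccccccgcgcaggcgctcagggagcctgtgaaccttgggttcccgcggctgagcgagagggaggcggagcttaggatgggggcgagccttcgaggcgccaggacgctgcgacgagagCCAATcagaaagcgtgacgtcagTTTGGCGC
Uhrf1 promoter (chr17:56303087-56303336, plus strand, the first of 2 listed starts): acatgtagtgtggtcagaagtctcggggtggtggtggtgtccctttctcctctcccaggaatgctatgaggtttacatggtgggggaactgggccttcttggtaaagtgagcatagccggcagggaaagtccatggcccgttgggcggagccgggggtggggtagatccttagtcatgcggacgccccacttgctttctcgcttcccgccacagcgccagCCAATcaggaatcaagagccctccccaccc
Prim1 promoter (chr10:128014965-128015214, plus strand): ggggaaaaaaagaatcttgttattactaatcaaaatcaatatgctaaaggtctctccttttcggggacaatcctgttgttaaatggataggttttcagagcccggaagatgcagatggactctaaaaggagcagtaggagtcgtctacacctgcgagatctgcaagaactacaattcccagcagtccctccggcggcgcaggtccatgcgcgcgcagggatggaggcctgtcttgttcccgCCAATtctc

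Dtl carried an E2F match directly before its start, and CCAAT stood within 31 bases of the start in all 3. GENCODE lists an earlier start, inside the printed stretch, for Prim1 and Uhrf1. Windows of 300 bases (250 before the start and 50 after) were listed for 38 of the 46 genes. At least 1 of the 4 E2F strings was present for 16 of these 38 (42.1%), against 4.85% of the genes tested that have a window and 2.61% of all genes with one. The strings were present for 11 of 27 genes that rose (40.7%) and for 5 of 11 that did not pass the test or were not tested (45.5%). Those 5 include Orc1 and Cdc6, which were under the filter and were called higher with no filter. The shares therefore do not compare genes that rose with genes that did not. CCAAT was present for 24 of 38 (63.2%, against 42.9% of genes tested), the string GGGCGG for 28 of 38 (73.7%, against 72.0%) and TTTGAA for 7 of 38 (18.4%, against 13.5%). The 7 with TTTGAA (Cdc45, Cdc7, Dbf4, Dnmt1, Fen1, Gins3 and Mcm2) were all among the 27 that rose (25.9%, against 18.3% of all genes called higher), and 0 of the 11 others had it. CCAAT was present for 19 of the 27 and 5 of the 11, and GGGCGG for 19 of the 27 and 9 of the 11. These differences were not tested. A match describes letters in these windows and does not show binding. The E2F matches of 6 genes follow, picked after their values were seen to show 5 of the roles, Cdt1 among them. Each stretch holds all matches found for its gene (2 for Mcm5 and for Rfc3, on opposite strands, and 1 for each of the others), in capitals, with 10 bases on either side of the first.
Orc1: ggagaaaactTTTCGCGCcactaaccga
Cdt1: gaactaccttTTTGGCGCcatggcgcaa
Mcm5: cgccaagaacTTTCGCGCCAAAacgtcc
Gins3: tcaaactcgcTTTCCCGCgccgcactcg
Pola1: cgggagtgcaTTTGGCGCcctgtgatga
Rfc3: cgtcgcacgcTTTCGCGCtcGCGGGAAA

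On GRCm38.p6 these stretches lie at Orc1 chr4:108579417-108579444 (minus strand), Cdt1 chr8:122568037-122568064 (plus strand), Mcm5 chr8:75109346-75109373 (plus strand), Gins3 chr8:95633508-95633535 (minus strand), Pola1 chrX:93632276-93632303 (plus strand) and Rfc3 chr5:151651201-151651228 (minus strand). The Cdt1 match and 1 of the Rfc3 matches lie after the RefSeq start or at it, and the others before it.

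Licensing factors differed most among themselves. Of the 6 tested, 1 rose and 0 fell, against 17.6% and 6.77% of all genes tested. That 1, Dtl, passed the filter only through its level with RCE. With the replicate block 5 rose and 1 fell, against 46.6% and 15.9% of all genes. Dtl, the substrate receptor of the ubiquitin ligase that marks Cdt1 for destruction during S phase (ENSMUSG00000037474, chromosome 1, 191537356 to 191575544, minus strand), had the largest ratio of all 46 genes. Control replicates 1, 2 and 3 held 0.801, 0.897 and 0.836 FPKM of it, and the RCE replicates in the same order 1.77, 1.88 and 1.87 FPKM, means of 0.845 ± 0.0486 and 1.84 ± 0.0622 (SD, n = 3). The RCE libraries thus held 2.18 times the control level with no overlap (log2 change 0.62, SE 0.04, adjusted p = 3.33e-04). Cdt1, which brings the MCM ring to ORC (ENSMUSG00000006585, chromosome 8, 122568015 to 122573554), was the one gene with a lower mean. It was at 10.2, 9.11 and 8.55 FPKM in control and 8.49, 7.59 and 7.83 FPKM with RCE, so all 3 RCE values lay below all 3 control values. The change of -0.19 did not pass the threshold (SE 0.07, adjusted p = 0.0992). It passed with the replicate block (adjusted p = 0.0019), with GC correction (0.0218) and without both replicate 1 libraries (0.00951).

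Gmnn encodes geminin, the protein that binds Cdt1 and blocks a new round of licensing. Its level was 0.554, 0.827 and 0.884 FPKM in control and 0.881, 1.42 and 1.51 FPKM with RCE. RCE replicate 1 lay at the height of control replicate 3, and the change of 0.37 did not pass (SE 0.13, adjusted p = 0.087). It did so with the block (adjusted p = 3.98e-04) and without RCE replicate 1 (0.0153). Cdt1 FPKM were 18.4, 11.0 and 9.67 times those of Gmnn in control replicates 1, 2 and 3, and 9.64, 5.34 and 5.19 times with RCE. This ratio, picked after the values were seen, was lower with RCE in each same-numbered pair, and the highest RCE value lay just under the lowest control value.

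The ORC subunits, which mark origins, were abundant except Orc1, the subunit whose level is known to follow the cell cycle. Orc1 was at 0.483, 0.55 and 0.477 FPKM in control and 0.864, 0.866 and 0.78 FPKM with RCE, 1.66 times the control mean. Cdc6, the loader that binds ORC, was at 0.497, 0.511 and 0.461 FPKM and then 0.938, 0.903 and 0.801 FPKM, 1.80 times the control mean. For these 2 genes an estimated 71 to 256 fragments lay behind each value. Neither was in the main test, and both were called higher with no filter (log2 changes 0.29 and 0.34, adjusted p = 0.00391 and 0.00315).

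The ratios of means were smaller for the other ORC genes listed here (1.25 for Orc2, 1.24 for Orc6 and less for Orc3). On the log2(FPKM + 1) scale the changes of Orc2 and Orc6 were not smaller than that of Orc1, because the added 1 understates low genes. The log2 ratios of means, without it, were 0.73 for Orc1, 0.32 for Orc2 and 0.32 for Orc6. Orc2 was at 9.49, 12.6 and 12.4 FPKM in control and 12.8, 14.7 and 15.7 FPKM with RCE (log2 change 0.30, SE 0.12, adjusted p = 0.121). Orc3 was at 12.5, 12.0 and 12.6 FPKM and then 12.8, 13.9 and 14.0 FPKM (0.13, SE 0.05, adjusted p = 0.12). Orc6 was at 7.51, 9.94 and 10.1 FPKM and then 10.8, 11.9 and 11.6 FPKM (0.30, SE 0.11, adjusted p = 0.0954). None of the 3 passed, although all their RCE values lay above all control values, as for 31.2% of all genes tested. All 3 were called higher with the block (adjusted p = 3.27e-04, 0.0158 and 0.00159), and Orc3 also without RCE replicate 1 (0.0472). Under median-of-ratios scaling none of them passed (adjusted p = 0.235, 0.583 and 0.201). With the block and median-of-ratios scaling together Orc2 (adjusted p = 0.00135) and Orc6 (0.00772) passed and Orc3 did not (0.317).

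The MCM ring, the motor of the helicase made of 6 related ATPases, rose as a whole. All 6 subunits passed the threshold, with log2 changes of 0.43 to 0.62, where 17.6% of all genes tested rose. All 6 also passed under every other setting in which they were tested. The share of all genes that did so was not counted. Mcm3 (ENSMUSG00000041859, chromosome 1, 20802968 to 20820312, minus strand) was at 6.43, 6.44 and 6.62 FPKM in control and 9.77, 9.90 and 10.4 FPKM with RCE (log2 change 0.56, SE 0.04, adjusted p = 6.16e-04). Mcm2 (ENSMUSG00000002870, chromosome 6, 88883474 to 88898780, minus strand), the most abundant subunit, was at 15.1, 14.6 and 14.1 FPKM and then 20.7, 20.1 and 20.4 FPKM (0.45, SE 0.04, adjusted p = 0.00138). Mcm5 (ENSMUSG00000005410, chromosome 8, 75109569 to 75128439), the least abundant, was at 2.57, 2.12 and 2.23 FPKM and then 3.97, 4.24 and 4.01 FPKM (0.62, SE 0.06, adjusted p = 0.0015). In each case the lowest RCE library stood well above the highest control library. Of all genes tested 31.2% had all RCE values above.

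Mcm6 was at 5.81, 6.24 and 6.38 FPKM in control and 7.96, 9.61 and 9.83 FPKM with RCE, with replicate 1 lowest in both groups (log2 change 0.50, SE 0.08, adjusted p = 0.00834). Mcm4 went from a mean of 9.80 ± 0.698 to 13.5 ± 0.67 FPKM and Mcm7 from 7.85 ± 0.303 to 10.9 ± 0.376 FPKM (SD, n = 3), both with a log2 change of 0.43. Mcm7 shares exonic bases with Cops6 and Ap4m1 on the opposite strand. The summed level of the 6 subunits was 48.6, 46.3 and 46.7 FPKM in control and 67.1, 68.4 and 68.6 FPKM with RCE. The subunits form a ring with 1 copy of each, yet their transcripts were unequal: Mcm2 held 30.2 to 31.5% of the sum in control and 29.4 to 30.8% with RCE, and Mcm5 4.56 to 5.28% and 5.84 to 6.20%. The share of Mcm5 was higher in all 3 RCE libraries than in any control library, a description of values picked after they were seen.

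Origin firing genes rose in 6 of the 7 cases tested, against 17.6% of all genes tested. Of the 6, Cdc7 and Mcm10 passed the filter only through their level with RCE. Cdc7, the kinase that phosphorylates the MCM ring, was at 1.00, 0.837 and 1.11 FPKM in control and 1.56, 1.83 and 2.04 FPKM with RCE, 1.84 times the control mean (log2 change 0.50, adjusted p = 0.00794). Its activator Dbf4 was more abundant, at 8.57, 8.02 and 7.84 FPKM and then 10.2, 10.1 and 10.3 FPKM (0.29, SE 0.04, adjusted p = 0.00675). The Dbf4 call ended with GC correction (adjusted p = 0.0848). Cdc45, which joins the MCM ring when an origin fires, was at 1.34, 1.26 and 1.15 FPKM and then 1.72, 1.98 and 1.91 FPKM (0.35, SE 0.05, adjusted p = 0.00658). Mcm10, which helps to activate the assembled helicase, was at 0.793, 0.767 and 0.711 FPKM and then 1.45, 1.32 and 1.16 FPKM (0.39, SE 0.06, adjusted p = 0.00525). For these 4 genes every RCE library exceeded every control library, as was so for 31.2% of all genes tested.

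The GINS complex has 4 subunits, and they did not move alike. Gins3 was at 1.16, 1.42 and 1.26 FPKM in control and 1.70, 1.81 and 2.02 FPKM with RCE (log2 change 0.32, adjusted p = 0.0149). Gins2 was at 1.82, 1.86 and 1.78 FPKM and then 2.05, 2.199 and 2.18 FPKM (0.16, adjusted p = 0.0306). Gins3 lost its call when control replicate 3 (adjusted p = 0.0593), RCE replicate 2 (0.0594) or RCE replicate 3 (0.0517) was left out, and under quantile normalization (0.0683). Gins2 lost its own under median-of-ratios scaling (adjusted p = 0.114), quantile normalization (0.418) and GC correction (0.0905), and when any of these was left out: control replicate 1 (0.0651), control replicate 2 (0.0783), control replicate 3 (0.105), RCE replicate 2 (0.12) or RCE replicate 3 (0.107). Gins1, under the filter, was at 0.73, 0.855 and 0.503 FPKM and then 0.926, 0.904 and 1.03 FPKM (0.21, adjusted p = 0.139 with no filter). Gins4 was the most abundant of the 4 and the flattest of all 46 genes, at 10.01, 9.61 and 9.65 FPKM and then 9.18, 10.6 and 9.61 FPKM. Its log2 change was 0.00 (SE 0.06, adjusted p = 0.98, 95% interval -0.14 to 0.14), and it was -0.069 with quantile normalization, -0.047 with GC correction and -0.076 with median-of-ratios scaling, none of which passed.

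Polymerases and primase rose in 5 of 6 cases, against 17.6% of all genes tested. Prim1, the catalytic subunit that makes the RNA primer (ENSMUSG00000025395, chromosome 10, 128015168 to 128030037), was at 2.09, 2.27 and 2.16 FPKM in control and 4.20, 3.77 and 4.04 FPKM with RCE. That is 1.84 times the control mean (log2 change 0.66, SE 0.05, adjusted p = 5.87e-04). Its partner Prim2, the large primase subunit and the most abundant gene of this role, was at 5.58, 5.56 and 4.84 FPKM and then 6.82, 6.35 and 6.02 FPKM (0.23, SE 0.07, adjusted p = 0.0553, and 8.98e-04 with the block). Prim2 stood at 2.24 to 2.67 times the level of Prim1 in control and at 1.49 to 1.68 times with RCE, again a ratio picked after the values were seen.

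Pole, the catalytic subunit of the leading-strand polymerase, was at 1.31, 1.27 and 1.27 FPKM in control and 2.05, 2.09 and 1.93 FPKM with RCE (log2 change 0.41, SE 0.04, adjusted p = 0.00135). Pola2, the regulatory subunit of polymerase alpha, was at 3.13, 3.14 and 3.52 FPKM and then 4.44, 4.39 and 4.35 FPKM (0.34, SE 0.05, adjusted p = 0.00532). The catalytic subunit of the same enzyme, Pola1, went from 1.56 ± 0.164 to 2.39 ± 0.239 FPKM (0.41, adjusted p = 0.0106), a call that ended without RCE replicate 2 (adjusted p = 0.0518). Pold1, which copies the lagging strand, had means of 3.26 ± 0.32 and 4.57 ± 0.175 FPKM (SD, n = 3), a log2 change of 0.39 (adjusted p = 0.00847). In none of these 6 genes did the groups overlap, and all RCE values lay above, as they did for 31.2% of all genes tested.

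Among the genes of the sliding clamp, its loader and the lagging strand 5 of 10 rose, against 17.6% of all genes tested. With the block 10 of 10 did, against 46.6% of all genes. Rpa1, the large subunit of the protein that coats single-stranded DNA (ENSMUSG00000000751, chromosome 11, 75298166 to 75348324, minus strand), had the largest change of the 43 genes tested on the log2(FPKM + 1) scale. With 0.1 FPKM added in place of 1 its change was 0.79, below those of Dtl (1.04) and Prim1 (0.85), among others. Rpa1 was at 9.86, 11.9 and 11.7 FPKM in control and 17.1, 20.2 and 20.6 FPKM with RCE (log2 change 0.74, SE 0.10, adjusted p = 0.00396). The middle subunit Rpa2 went from 2.35 ± 0.287 to 3.52 ± 0.459 FPKM (0.43, adjusted p = 0.0218). Leaving out control replicate 1 (adjusted p = 0.0502), control replicate 3 (0.0799), RCE replicate 2 (0.0858) or RCE replicate 3 (0.0705) ended the Rpa2 call, as did quantile normalization (0.0556). Fen1, the nuclease that trims Okazaki fragments, went from 3.19 ± 0.341 to 4.83 ± 0.462 FPKM (0.48, adjusted p = 0.00967). Lig1, the ligase that seals them, had means of 2.42 ± 0.0908 and 2.87 ± 0.217 FPKM (SD, n = 3), a log2 change of 0.18 (adjusted p = 0.0523). Lig1 was called higher with the block (adjusted p = 0.00941) and without RCE replicate 1 (0.0295). It was not called with the block and median-of-ratios scaling together (adjusted p = 0.0553).

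Pcna, the clamp itself and a common marker of dividing cells, did not pass. It was at 24.1, 29.0 and 30.1 FPKM in control and 25.8, 33.1 and 33.2 FPKM with RCE, so RCE replicate 1 lay below control replicates 2 and 3. The log2 change was 0.14 (SE 0.12, adjusted p = 0.463, 95% interval -0.16 to 0.44, and adjusted p = 0.00274 with the block). With the block and median-of-ratios scaling together Pcna did not pass (adjusted p = 0.123). Processed pseudogenes named after Pcna and Tyms are annotated and could share their reads. The clamp loader, replication factor C, has 5 subunits, of which 2 rose. Rfc3 was at 3.08, 2.81 and 3.20 FPKM and then 4.73, 4.63 and 5.25 FPKM (0.54, SE 0.06, adjusted p = 0.00238), and Rfc5 at 1.29, 1.38 and 1.49 FPKM and then 1.97, 2.02 and 1.93 FPKM (0.32, SE 0.04, adjusted p = 0.00525). Rfc4 went from 1.92 ± 0.289 to 2.72 ± 0.411 FPKM (0.35, adjusted p = 0.0561), Rfc1 from 8.87 ± 0.209 to 10.2 ± 0.822 FPKM (0.18, adjusted p = 0.0842) and Rfc2 from 2.52 ± 0.183 to 2.85 ± 0.212 FPKM (0.13, adjusted p = 0.172). With the block these 3 were called higher too (adjusted p = 1.91e-04, 0.00405 and 0.0168), and without RCE replicate 1 so were Rfc4 (0.0201) and Rfc1 (0.0167). With the block and median-of-ratios scaling together Rfc4 (adjusted p = 4.14e-04) and Rfc1 (0.0486) passed and Rfc2 did not (0.164).

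In deoxynucleotide supply 3 of 4 genes rose, against 17.6% of all genes tested, among them Rrm1, the most abundant of all 46 transcripts. Rrm1, the large subunit of ribonucleotide reductase, was at 30.8, 30.6 and 31.9 FPKM in control and 35.1, 36.9 and 36.1 FPKM with RCE (log2 change 0.21, SE 0.04, adjusted p = 0.0173). Rrm2, the small subunit that is made in S phase, was at 19.1, 19.4 and 19.0 FPKM and then 23.6, 25.0 and 24.8 FPKM (0.34, SE 0.04, adjusted p = 0.00361). Both subunits were tight within groups, with all RCE values above, as for 31.2% of all genes tested. Tk1, the thymidine kinase of dividing cells, was at 2.18, 2.05 and 1.94 FPKM and then 3.10, 2.60 and 3.04 FPKM (0.36, SE 0.06, adjusted p = 0.0108). Tyms, thymidylate synthase, was at 3.34, 3.77 and 3.90 FPKM and then 3.998, 4.59 and 4.25 FPKM (0.18, SE 0.07, adjusted p = 0.0994, and 0.00471 with the block). Rrm1 was no longer called under median-of-ratios scaling (adjusted p = 0.092) or GC correction (0.0815), nor without control replicate 2 (0.0757), control replicate 3 (0.0509), RCE replicate 2 (0.0897) or RCE replicate 3 (0.0703).

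The 4 genes of chromatin restoration all rose, where 17.6% of all genes tested did. Uhrf1, which reads hemimethylated DNA and recruits the maintenance methyltransferase (ENSMUSG00000001228, chromosome 17, 56303321 to 56323486), was at 3.27, 3.17 and 3.08 FPKM in control and 4.99, 4.93 and 5.03 FPKM with RCE (log2 change 0.52, SE 0.04, adjusted p = 5.74e-04). Chaf1a, the large subunit of the histone chaperone that follows the clamp, was at 2.01, 2.15 and 2.05 FPKM and then 3.08, 3.16 and 3.08 FPKM (0.42, SE 0.04, adjusted p = 0.00116). Its partner Chaf1b was at 2.73, 2.21 and 2.14 FPKM and then 4.61, 3.38 and 3.46 FPKM, with replicate 1 highest in both groups (0.51, SE 0.11, adjusted p = 0.0229). Dnmt1, the maintenance methyltransferase, was at 8.28, 7.19 and 7.58 FPKM and then 9.17, 8.95 and 8.83 FPKM (0.20, SE 0.06, adjusted p = 0.043). Chaf1b was not called after quantile normalization (adjusted p = 0.0732) or GC correction (0.0529), nor without control replicate 2 (0.0834), control replicate 3 (0.0848) or RCE replicate 2 (0.0502). Dnmt1 was not called with no filter (adjusted p = 0.0611), a minimum mean of 5 FPKM (0.054), GC correction (0.0814), quantile normalization (0.276) or median-of-ratios scaling (0.223). Nor was it without control replicate 2 (0.128), control replicate 3 (0.132), RCE replicate 1 (0.0789), RCE replicate 2 (0.132) or RCE replicate 3 (0.105).

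Replicate 1 stood apart for many of these genes. In both groups it was the lowest library for 16 of the 46 genes and the highest for 9. Of the 16, 8 rose in the test and 8 did not pass, among them Orc2, Orc6, Gmnn, Pcna and Rfc4. In all of those 8 the RCE value exceeded the control value in each same-numbered pair. How many of all genes tested show these patterns was not counted, so the counts have no background beside them. Across all genes tested, the replicate 1 libraries of both groups had correlated deviations from their group means (0.92). All 8 were called higher with the block, as were 46.6% of all genes tested. What the replicate numbers stand for is not given.

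**Figure D3:**
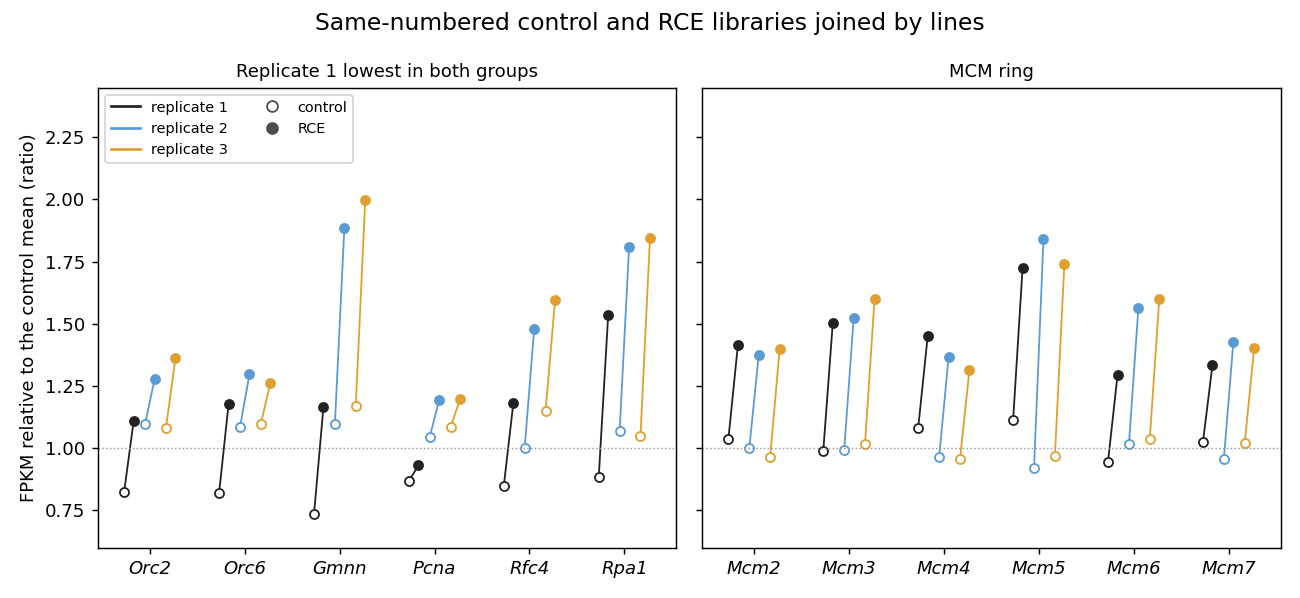
The vertical axis is FPKM as a ratio to the control mean of each gene, with open circles for control, filled circles for RCE and lines joining libraries of the same replicate number. The left panel holds 6 genes for which replicate 1 (black) was lowest in both groups, picked after the values were seen, and the right panel the 6 MCM genes. Every line slopes upward, while the open and filled circles of different replicates overlap for Gmnn and Pcna.

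Genes with low transcript levels had the larger ratios. Of the 28 genes with a control mean under 5 FPKM, 15 were at 1.5 times the control mean or more with RCE, and the median ratio was 1.51. Of the 18 genes at 5 FPKM or more, 2 (Rpa1 and Mcm3) were, and the median was 1.25. The control level enters both measures, so this is a description. The least abundant subunit had the largest ratio among the 4 ORC genes (Orc1, 1.66) and in the MCM ring (Mcm5, 1.77), but not in GINS, where Gins1 (1.37) was below Gins3 (1.44). Gins4 was at 11.2 to 19.2 times the level of Gins1 in control and at 9.31 to 11.7 times with RCE, ranges that overlap. Orc2 was at 19.7 to 26.1 times the level of Orc1 in control and at 14.8 to 20.1 times with RCE.

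The rest of the replication machinery was read from a list of 44 other genes, of which 38 were tested. In it 16 rose and 0 fell, against 17.6% and 6.77% of all genes tested, with a median log2 change of 0.22. With the block 31 rose, against 46.6% of all genes. With the filter on the control mean 14 of 36 rose, against 16.9% of all genes. Timeless, which couples the helicase to the polymerase, went from 0.928 to 1.59 FPKM (adjusted p = 8.05e-04) and passed the filter only through its level with RCE. The fork protein Wdhd1 changed by 0.36 on the log2 scale, the helicase Recql4 by 0.38, Rif1, which sets the timing of replication, by 0.27, the firing factor Topbp1 by 0.34 and the histone chaperone Nasp by 0.37. Orc4 and Orc5, the ORC subunits in this list, rose by 0.21 and 0.38 (adjusted p = 0.0115 and 0.0161).

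Of 17 mitotic genes 16 were tested, and 12 were higher and 0 lower, with a median of 0.37. Among all genes tested 17.6% were higher and 6.77% lower. With the block 16 of 16 mitotic genes were higher, against 46.6% of all genes. The 6 with the smallest p were Ncapg, Top2a, Cdc20, Bub1, Aurkb and Cenpe, which changed by 0.33 to 0.55. Genes of the G1/S switch were mixed, with 6 of 15 tested higher, 1 lower and a median of 0.10. With the block 9 were higher and 1 was lower, where 46.6% of all genes were higher and 15.9% lower. Those higher included the S phase cyclin Ccna2 (0.52), the ubiquitin ligase subunit Skp2 (0.40), Rbl1 (0.41), the phosphatase Cdc25a (0.33) and cyclin E1, Ccne1 (0.26). The one lower was Cdkn1b, which encodes the kinase inhibitor p27, from 13.6 to 10.5 FPKM (-0.35, adjusted p = 0.0126). Without RCE replicate 2, or without RCE replicate 3, 0 genes of this list were called lower. The cyclin Ccnd1 was at 56.2 FPKM in both groups (adjusted p = 0.994) and the factor E2f1 changed by 0.10 (adjusted p = 0.191, and 0.0283 with the block). The difference between these lists and the 46 genes was not tested.

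**Figure D4:**
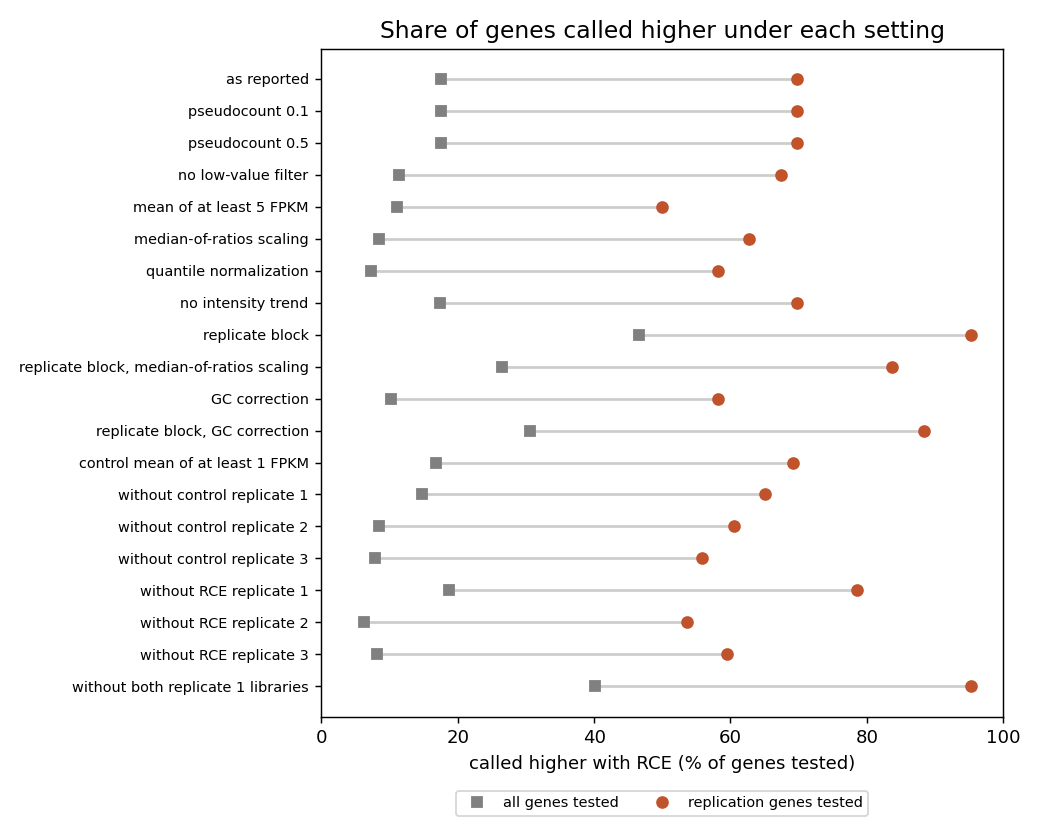
The horizontal axis is the percentage of genes tested that were called higher with RCE at an adjusted p below 0.05, for all genes (grey squares) and for the replication genes (orange circles), under each setting named on the vertical axis. The number of replication genes tested ranged from 18 with a minimum mean of 5 FPKM to 46 with no filter. The circle lies to the right of the square under every setting shown.

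Of the 30 genes that rose, 21 were called higher in all 17 fits that kept the low-value filter at a mean of 1 FPKM. The share of all genes called higher in all 17 fits was not counted, so the 21 have no background beside them. Mcm10 was called higher in the 14 of these fits in which it passed that filter. In the main fit Dtl, Cdc7 and Mcm10 passed it only through their level with RCE. These genes could not be tested with the filter on the control mean. The 21 were Dtl, the 6 MCM genes, Cdc45, Cdc7, Pola2, Prim1, Pold1, Pole, Rfc3, Rfc5, Fen1, Rpa1, Rrm2, Tk1, Uhrf1 and Chaf1a. Exons of 12 of the 46 genes overlap a protein-coding gene on the opposite strand, and whether the counting used strand is not given in the sources used here. These are Orc2, Orc6, Mcm7, Cdc45, Gins2, Rfc2, Rfc4, Rfc5, Fen1, Lig1, Tk1 and Chaf1a.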

How the data were processed

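RNA was measured in 6 libraries made with a stranded messenger RNA kit, per the labels' protocols. The values the authors deposited, 1 for each gene in each library, were read as FPKM. The file header states no unit, but the submitters' processing notes name Cufflinks and Cuffdiff 2.2.1 beside STAR 2.5.4 and build mm10, and low values step by whole fragments. The sources used here do not give the annotation, the filters or the use of strand. FPKM are relative, so a gene that takes a larger share of a library lowers the others.

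All 21853 Ensembl identifiers were found in GENCODE M21, which gave coordinates, transcript lengths and GC content. Where a symbol stood on several rows (24 symbols), the row of highest mean stood for it. Depth is the number of fragments at which values of 0.02 to 0.5 FPKM of 1-transcript genes (500 to 2000 bases) became whole within 0.1 of a fragment (100% of values per library). Fragments behind a value use the longest transcript and cover counting error only.

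The test was limma 3.58.1 under R 4.3.3, with a trend of variance on intensity, 2-sided, applied to log2(FPKM + 1) of the 10870 genes whose mean reached 1 FPKM, with Benjamini-Hochberg adjustment over all genes. The pipeline was tested on simulated data. Log2 changes are on this scale and understate those of low genes. Across genes, same-numbered libraries had correlated deviations from their group mean (0.92, 0.62 and 0.68), and pairing by number was accepted on that ground. Yet control replicate 2 went best with RCE replicate 3 (0.77) and control replicate 3 with RCE replicate 2 (0.72). Deviations within a group cancel out, so once replicate 1 stands apart the others correlate whichever way they are paired. The correlations thus cannot show how replicates 2 and 3 pair, and blocked values rest on an assumed pairing of them. Blocked values of the 46 genes, and blocked counts of the other lists, are given where they change calls. The 46 genes, the other lists and the tests were chosen with earlier results of these data known. Named in full by rule were, per role, the genes with the 3 smallest p, the highest level and the largest p, and of each other list the 6 with the smallest p; further genes, Cdt1 and the 6 E2F sites among them, were picked after their values were seen. Alternatives were other pseudocounts, filters and scalings, GC correction (loess, span 0.5), no trend, the block and libraries left out.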

Additional observations from a re-analysis of the deposited data

How the results depend on the processing

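The count of 30 replication genes called higher stayed within 1.5 times under every alternative but a minimum mean of 5 FPKM, which left 18 of them to test and called 9. It ran from 22 to 33 with each library left out. The count called lower, 0, was 1 (Cdt1) with the replicate block, with the block and median-of-ratios scaling, with GC correction, with the block and GC correction, and without both replicate 1 libraries. Gins4, which was not called in any fit, changed sign: -0.076 with median-of-ratios scaling, with and without the replicate block, -0.069 with quantile normalization, -0.047 with GC correction, with and without the block, and -0.049 to 0.044 with single libraries left out. The replicate block turned 12 replication genes into calls and ended none. With it 46.6% of all genes tested were called higher and 15.9% lower.

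The median log2 change of the replication genes, 0.36, moved by more than the spread between libraries to 0.48 and 0.43 with pseudocounts of 0.1 and 0.5, 0.29 at a minimum of 5 FPKM and with quantile normalization, 0.30 with median-of-ratios scaling and 0.31 with GC correction, both with and without the block, and 0.39 without both replicate 1 libraries. With single libraries left out it ran from 0.34 to 0.38, and only without RCE replicate 1 (0.38) did it move by more than that spread.

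Of the other lists, the 16 other replication genes called higher became 6 at a minimum mean of 5 FPKM, 10 with quantile normalization, 31 with the block, 25 with the block and GC correction, 31 without both replicate 1 libraries and 7 to 21 with single libraries left out. At the minimum of 5 FPKM 4 mitotic and 2 G1/S genes were called higher. G1/S genes called lower were 2 with the block and median-of-ratios scaling, and 0 to 1 with single libraries left out.

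Over all genes, 1910 higher and 736 lower became 867 and 485 at a minimum of 5 FPKM, 924 higher with median-of-ratios scaling, 785 higher with quantile normalization, 5060 and 1730 with the replicate block, 2875 and 2996 with the block and median-of-ratios scaling, 1116 higher with GC correction, 3321 and 2536 with the block and GC correction, and 4360 and 1481 without both replicate 1 libraries. They ran from 677 to 2029 higher and 399 to 739 lower with single libraries left out. Some of these fits held fewer genes or libraries than the main one. The causes of the changed counts were not tested.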
